A study of Homo sapiens with 3 samples.

Results

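RET, its GFRA co-receptors, the neurotrophin receptors, ALK and the neuropeptide precursor VGF were examined as a set of 9 genes in human BE(2)-C cells, a neuroblastoma line with an amplified MYCN gene. The members were chosen by gene symbol: a probe set belonged if the platform annotation gave it the symbol RET, GFRA1, GFRA2, GFRA3, NTRK2, NTRK3, NGFR, ALK or VGF. Of the 9 members, 7 were measured, each by 1 probe set, among 14884 named genes in all. NTRK2 and NTRK3 had no annotated probe set here and were not analysed. Cells had been transfected with WDR5 siRNA-1, WDR5 siRNA-2 or a control siRNA for 40 hours, and each of the 3 groups was 1 Affymetrix HuGene-2_0-st array. WDR5 belongs to the enzyme complexes that place methyl marks on histone H3 lysine 4 at active promoters. All 3 groups shared the same cell line, the amplified MYCN gene and the serum-containing culture medium, and the line is a single tumour-derived clone. With 1 array per group there is no replicate error and no test, so each ratio compares a pair of arrays, and both ratios to control share the same control array.

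RET is the receptor tyrosine kinase of the GDNF ligand family. It does not bind these ligands alone: each binds a GFRA co-receptor held in the membrane by a lipid anchor, and the ligand and co-receptor together bring RET molecules into contact. The neurotrophins BDNF and NT-3 act through receptor kinases encoded by NTRK2 and NTRK3, and through the shared receptor p75, the product of NGFR. ALK is another receptor tyrosine kinase and is mutated in some neuroblastomas. VGF, a neurotrophin-inducible gene, encodes a secreted precursor that is cut into several neuropeptides. In sympathetic neurons and in neuroblastoma these receptors and VGF are commonly followed as genes of survival signalling and neuronal maturation.

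Levels below are the deposited values, read as log2, and a difference of levels is a log2 ratio. A level is specific to its probe set, so levels are compared between arrays and not between genes. The arrays had median levels of 5.79 for WDR5 siRNA-1, 5.79 for WDR5 siRNA-2 and 5.81 for the control over 53617 probe sets. A gene was kept when its mean level was at or above the median over named genes, 6.78, which left 7442 genes, among them 4 members: RET, GFRA2, ALK and VGF. A kept gene was counted as apart when the arrays differed by at least 1.5-fold. The siRNA target itself, WDR5, had a level of 7.90 on the siRNA-1 array and 7.90 on the siRNA-2 array, against 9.46 with the control siRNA, a log2 ratio of -1.56 for each, or 33.9% of control. Exact ties between the siRNA arrays are frequent, since 21.5% of the kept genes had one value on both. That share includes the 14.9% of kept genes with one value on all 3 arrays, unlike WDR5, whose control value differed. The labelled cell type was checked on 12 listed markers of sympathoadrenal neuroblasts, of which 10 were measured; these stood between 7.29 and 12.96, with median log2 ratios of -0.02 for siRNA-1 and 0.03 for siRNA-2.

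VGF was higher with both siRNAs, by almost the same amount. Its level was 9.93 with WDR5 siRNA-1 and 9.84 with WDR5 siRNA-2, against 8.69 with the control siRNA. Both knockdown arrays thus lay above the control array, and they differed from each other by a log2 ratio of 0.09. The log2 ratio to control was 1.24 with siRNA-1, which is 2.36-fold, and 1.15 with siRNA-2, which is 2.21-fold. VGF was the 1 of the 4 kept members that passed 1.5-fold on the same side with both siRNAs. Among all 7442 kept genes, 1.46% passed by this rule, 0.618% on the higher and 0.847% on the lower side. VGF had the 13th highest ratio with siRNA-1 and the 16th highest with siRNA-2. Besides VGF, 3 genes had both ratios at least as high: EGR1, KPNA5 and SMIM15. In bulk RNA from a culture, a change in the number of cells that make a transcript and a change in the amount per cell cannot be told apart.

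The sequence before the VGF start is shown because it holds letters that are bound by known classes of regulators and because VGF was the member that was higher with both siRNAs. The window is the 250 bases before the start in RefSeq on the minus strand of GRCh38.p14, chr7:101165570-101165819, printed 5′ to 3′.
VGF: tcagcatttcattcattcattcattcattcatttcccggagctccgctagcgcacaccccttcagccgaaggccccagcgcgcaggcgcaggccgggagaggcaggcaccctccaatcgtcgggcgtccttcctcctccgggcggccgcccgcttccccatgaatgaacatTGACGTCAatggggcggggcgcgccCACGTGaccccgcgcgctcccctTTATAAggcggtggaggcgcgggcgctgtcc
The capitals mark, in order, TGACGTCA (the cAMP response element, bound by CREB and ATF factors), CACGTG (the E-box, which MYC family dimers with MAX and some other factors can bind) and the overlapping forward and reverse matches of TATAA (the core of a TATA box). The cAMP response element spans 79 to 72 bases before the start, the E-box 54 to 49 and the TATAA matches 31 to 26. Both strands of the same 250 bases were searched in all 35116 promoter windows of the table. TGACGTCA stood in 1.65% of them, CACGTG in 6.34% and TATAA in 18.9%. The EGR motif GCGTGGGCG, which 0.72% of windows held, was not found in the VGF window, nor in any window of another member in the table. Such matches describe letters, and no binding was measured.

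RET was far higher with WDR5 siRNA-2 than with siRNA-1. Its level was 9.79 with WDR5 siRNA-1 and 10.96 with WDR5 siRNA-2, against 9.47 with the control siRNA. Both knockdown arrays lay above the control, and the siRNA-1 array lay much closer to it than the siRNA-2 array did. With siRNA-2 the log2 ratio was 1.48, or 2.80-fold, the third highest of the 7442 kept genes after EGR1 and ARL6. With siRNA-1 it was 0.32, or 125% of the control level, which is inside the limit, and 600 kept genes had a ratio at least as high. Set directly against siRNA-2, RET stood 2.24-fold lower on the siRNA-1 array, a log2 ratio of -1.17, and 60 kept genes had a ratio this low or lower. A share of 4.65% of the kept genes was at least 1.5-fold lower on the siRNA-1 array by the same comparison, and 4.21% were higher by as much.

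The window before the first of 2 RET starts in the table is shown beside that of VGF, since RET was high with 1 siRNA and VGF with both. It lies on the plus strand of GRCh38.p14 at chr10:43076819-43077068, from RefSeq.
RET: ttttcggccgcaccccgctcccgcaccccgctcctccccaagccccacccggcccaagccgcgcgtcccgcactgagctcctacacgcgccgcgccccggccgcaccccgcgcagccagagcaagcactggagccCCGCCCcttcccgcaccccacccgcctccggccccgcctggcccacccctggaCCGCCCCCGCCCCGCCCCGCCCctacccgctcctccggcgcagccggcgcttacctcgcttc
Here the capitals mark 5 matches to GGGCGG, the GC box bound by SP1 and related factors, which reads CCGCCC on the other strand. Of these, 4 lie in the run from 62 to 41 bases before the start, where neighbouring matches touch or share a letter. GGGCGG stood in 42.6% of all windows, VGF among them. In the VGF window its matches span 111 to 106, 105 to 100 and 68 to 63 bases before the start. They were left in small letters there, so the capitals of the windows are not comparable. The RET window was 79.6% G or C and the VGF window 66.0%. Neither TGACGTCA, CACGTG nor TATAA was in either RET window. Of the other members in the table, ALK had CACGTG in 1 of 2 windows, and TGACGTCA was in none of the windows of GFRA1, GFRA3, NTRK2, NTRK3 or ALK.

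**Figure D1:**
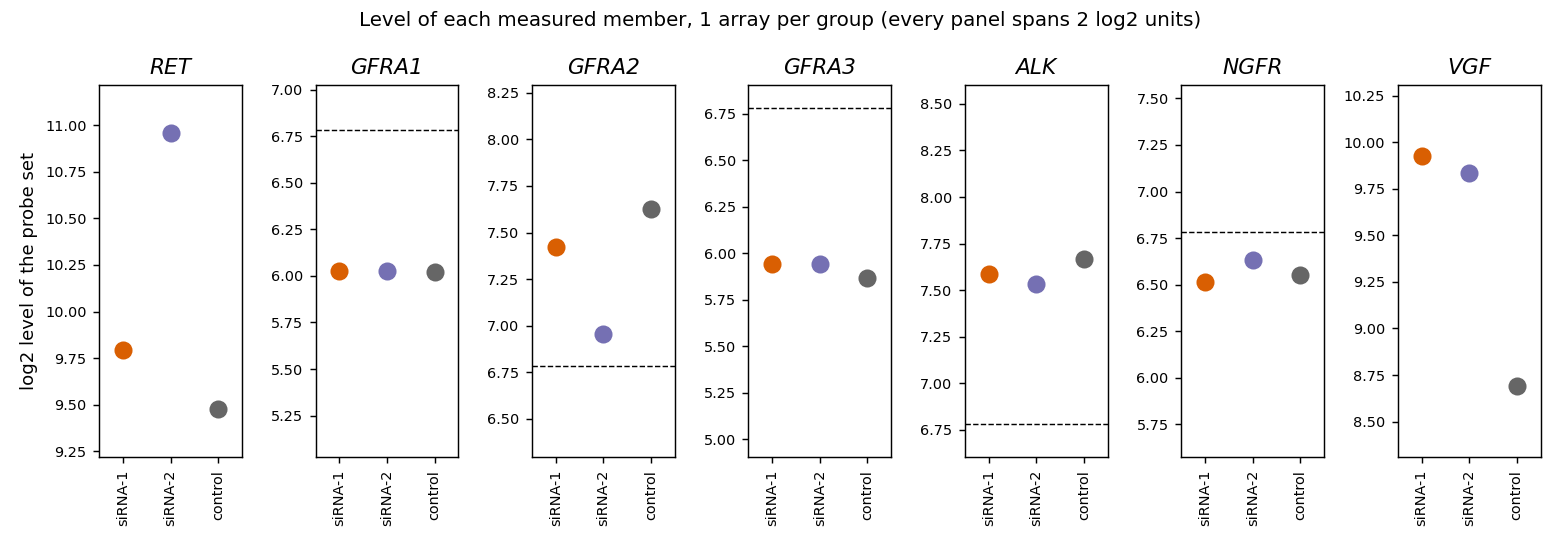
Level (log2) of each of the 7 measured members on the WDR5 siRNA-1, WDR5 siRNA-2 and control siRNA arrays. Each point is 1 array, each panel spans 2 log2 units so that distances can be compared between panels, and the dashed line is the filter level of 6.78 where it falls in the panel. VGF stands high on both siRNA arrays, RET on the siRNA-2 array, and GFRA2 lowest on the siRNA-2 array.

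Among the co-receptors of RET, 1 was kept. GFRA2, the preferred co-receptor of neurturin, stood at 7.42 with WDR5 siRNA-1 and 6.96 with WDR5 siRNA-2, against 7.63 with the control siRNA. Both knockdown arrays lay below the control, so the order of the arrays was the reverse of that for RET. With siRNA-2 the log2 ratio was -0.67, or 1.59-fold lower. With siRNA-1 it was -0.21, or 1.15-fold lower. With siRNA-2, 197 kept genes had a ratio this low or lower, and the level of 6.96 was close to the filter level.

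GFRA1, the preferred co-receptor of GDNF, stood at 6.03 with WDR5 siRNA-1 and 6.03 with WDR5 siRNA-2, against 6.02 with the control siRNA. GFRA3, the co-receptor of artemin, stood at 5.94 with WDR5 siRNA-1 and 5.94 with WDR5 siRNA-2, against 5.87 with the control siRNA. Both genes had exactly equal values on the siRNA arrays, and both were below the filter level on all 3 arrays.

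NGFR, the gene of p75, stood at 6.51 with WDR5 siRNA-1 and 6.63 with WDR5 siRNA-2, against 6.55 with the control siRNA. The control thus lay between the siRNA arrays, and the log2 ratios were -0.04 and 0.08. ALK, which was kept, stood at 7.59 with WDR5 siRNA-1 and 7.53 with WDR5 siRNA-2, against 7.67 with the control siRNA. Its log2 ratio was -0.08 for siRNA-1 and -0.13 for siRNA-2, both well inside 1.5-fold. The ratios to control of the 3 members below the filter, GFRA1, GFRA3 and NGFR, ran from -0.04 to 0.08. No detection call is given with the values. For the 3 members below the filter, a ratio near 0 therefore does not tell an unchanged transcript from one too dim to follow.

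Counted over the 4 kept members, 1 was at least 1.5-fold apart from control with WDR5 siRNA-1 (VGF, higher) and 3 with WDR5 siRNA-2 (VGF and RET, higher, and GFRA2, lower). Among all kept genes, 6.84% passed the limit with siRNA-1 (2.24% higher and 4.60% lower) and 6.19% with siRNA-2 (2.19% higher and 4.00% lower). Between the siRNAs, RET was the 1 kept member past the limit, while 8.86% of all kept genes were past it in either direction. GFRA2 had a log2 ratio of siRNA-1 over siRNA-2 of 0.47 and ALK of 0.05. The pairs of ratios place RET and VGF at the upper edge of the cloud of kept genes, in different directions from its centre.

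**Figure D2:**
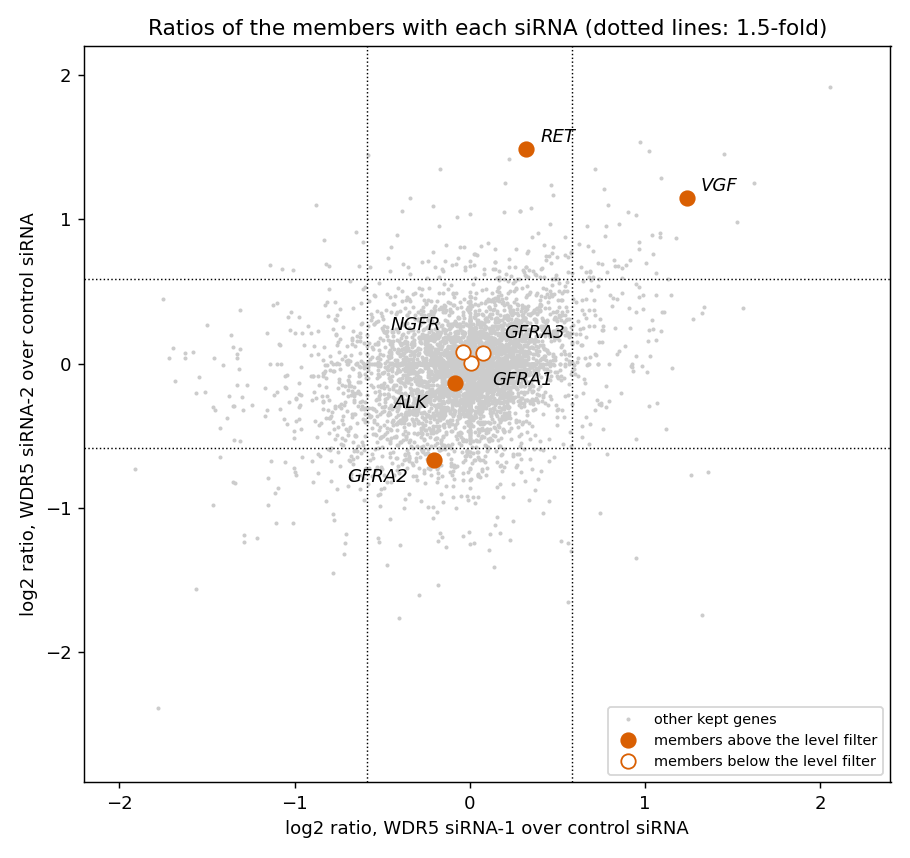
Log2 ratio over control siRNA with WDR5 siRNA-1 (x axis) and with WDR5 siRNA-2 (y axis) for the kept genes (grey) and for the 7 measured members (orange; open circles are below the level filter), with dotted lines at 1.5-fold. VGF lies past the limit on both axes, RET and GFRA2 on the siRNA-2 axis in opposite directions, and the others near 0. The axes leave out 2 kept genes, and both ratios share the control array.

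The level of another cell type's marker moved alongside VGF. Of the 4 measured mesenchymal and stromal markers, LUM (lumican) had a log2 ratio of 1.52 for siRNA-1 and of 0.98 for siRNA-2, while DCN, PRRX1 and TWIST1 had ratios between -0.15 and 0.12. The summed linear level of these 4 was 1918 with siRNA-1 and 1457 with siRNA-2, against 1042 with the control siRNA. That rise rests on LUM, the 1 of the 4 past 1.5-fold, and the sum adds levels of different probe sets. PECAM1, an endothelial marker, had log2 ratios of 0.59 and 0.83 but stood at only 4.88 and 5.12, against 4.29 with the control siRNA, and KDR, the other one measured, had -0.10 with each. The 4 Schwann cell markers measured had ratios between -0.14 and 0.04, and the 2 leukocyte markers between 0.08 and 0.38. The limit of 1.5-fold was passed by 6.84% of all kept genes with siRNA-1. With both siRNAs, 1.46% passed it on the same side, and 0.618% were higher. No sympathoadrenal marker of the 10 measured passed 1.5-fold on the same side with both siRNAs. DBH (dopamine beta-hydroxylase), the 1 such marker past the limit with siRNA-1, stood at 9.58 with WDR5 siRNA-1 and 10.90 with WDR5 siRNA-2, against 10.39 with the control siRNA. Its log2 ratio of siRNA-1 over siRNA-2 was -1.32, beside -1.17 for RET. The part of these markers in the VGF and RET values was not tested.

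Ligands and further receptors of these systems were taken from a list of 32 genes, of which 21 were measured and 9 kept. GDNF, NTF3, SORT1 and the ALK ligands ALKAL1 and ALKAL2 had no annotated probe set here. None of the 9 passed 1.5-fold with both siRNAs, and 7 were inside the limit with each. Over all kept genes, 6.84% passed it with siRNA-1, 6.19% with siRNA-2 and 1.46% on the same side with both. The medians of the 9 were 0.00 with siRNA-1 and 0.00 with siRNA-2, as over all kept genes. MDK (midkine), a heparin-binding growth factor, stood at 10.44 with WDR5 siRNA-1 and 9.58 with WDR5 siRNA-2, against 10.35 with the control siRNA, and was 1.70-fold lower with siRNA-2. Its relative PTN (pleiotrophin) had 9.62 on both siRNA arrays, against 9.22 with the control siRNA, a log2 ratio of 0.40. SORCS1, a sorting receptor of the sortilin family, stood at 7.80 with WDR5 siRNA-1 and 9.18 with WDR5 siRNA-2, against 8.82 with the control siRNA. With siRNA-1 its level was 2.03-fold below control and 2.60-fold below that of the siRNA-2 array. Between the siRNAs, 1 kept gene of this list was thus past the limit on each side, since the siRNA-1 level of MDK was 1.81-fold above its siRNA-2 level. By that comparison, 4.21% of all kept genes were higher on the siRNA-1 array and 4.65% lower. LRIG2 had log2 ratios of -0.07 and -0.22, and the adhesion molecule NCAM1, an alternative GDNF receptor, of 0.03 with each. NRTN (neurturin), the ligand that pairs with GFRA2, had the same value of 6.80 on all 3 arrays, just above the filter level of 6.78. So near the filter, an unchanged transcript cannot be told from one too dim to follow.

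Adaptors and kinases downstream of RET, the neurotrophin receptors and ALK formed a list of 69 genes, of which 38 were measured and 30 kept. With siRNA-1, 3 were at least 1.5-fold lower and 0 higher. With siRNA-2, 1 was higher and 0 lower. Over all kept genes, 4.60% were lower and 2.24% higher with siRNA-1, and 4.00% lower and 2.19% higher with siRNA-2. Of the 30, 26 were inside the limit with both siRNAs, and the medians were 0.00 with siRNA-1 and -0.01 with siRNA-2. DOK4, a docking protein that binds RET, stood at 11.97 with WDR5 siRNA-1 and 12.59 with WDR5 siRNA-2, against 12.81 with the control siRNA, with log2 ratios of -0.84 and -0.22. STAT3, a transcription factor activated by receptor kinases, was 2.51-fold lower with siRNA-1, at 9.97, and stood at 11.15 with siRNA-2, against 11.30 with the control siRNA. RIPK2, which can bind p75, was the third gene that was lower with siRNA-1, with log2 ratios of -0.76 and 0.01. NFKB1 had log2 ratios of -0.17 and 0.60 and was the 1 gene past the limit with siRNA-2. Between the siRNAs, DOK4, STAT3, RIPK2 and NFKB1 were at least 1.5-fold lower on the siRNA-1 array, and 0 genes of this list were higher. By that comparison, 4.65% of all kept genes were lower and 4.21% higher.

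Of the core chain from receptor to RAS, GRB2 (the SH2 adaptor that links receptors to SOS) had log2 ratios of 0.29 and 0.28, and SOS2 (a RAS exchange factor) of 0.27 and 0.22. RAPGEF1, an exchange factor for RAP1, had -0.26 with each. These shared ratios were all under 1.5-fold. SHC1 and MAP2K1, whose products carry the signal onward from active receptors, had log2 ratios of 0.00 and 0.38 and of 0.01 and 0.10.

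**Figure D3:**
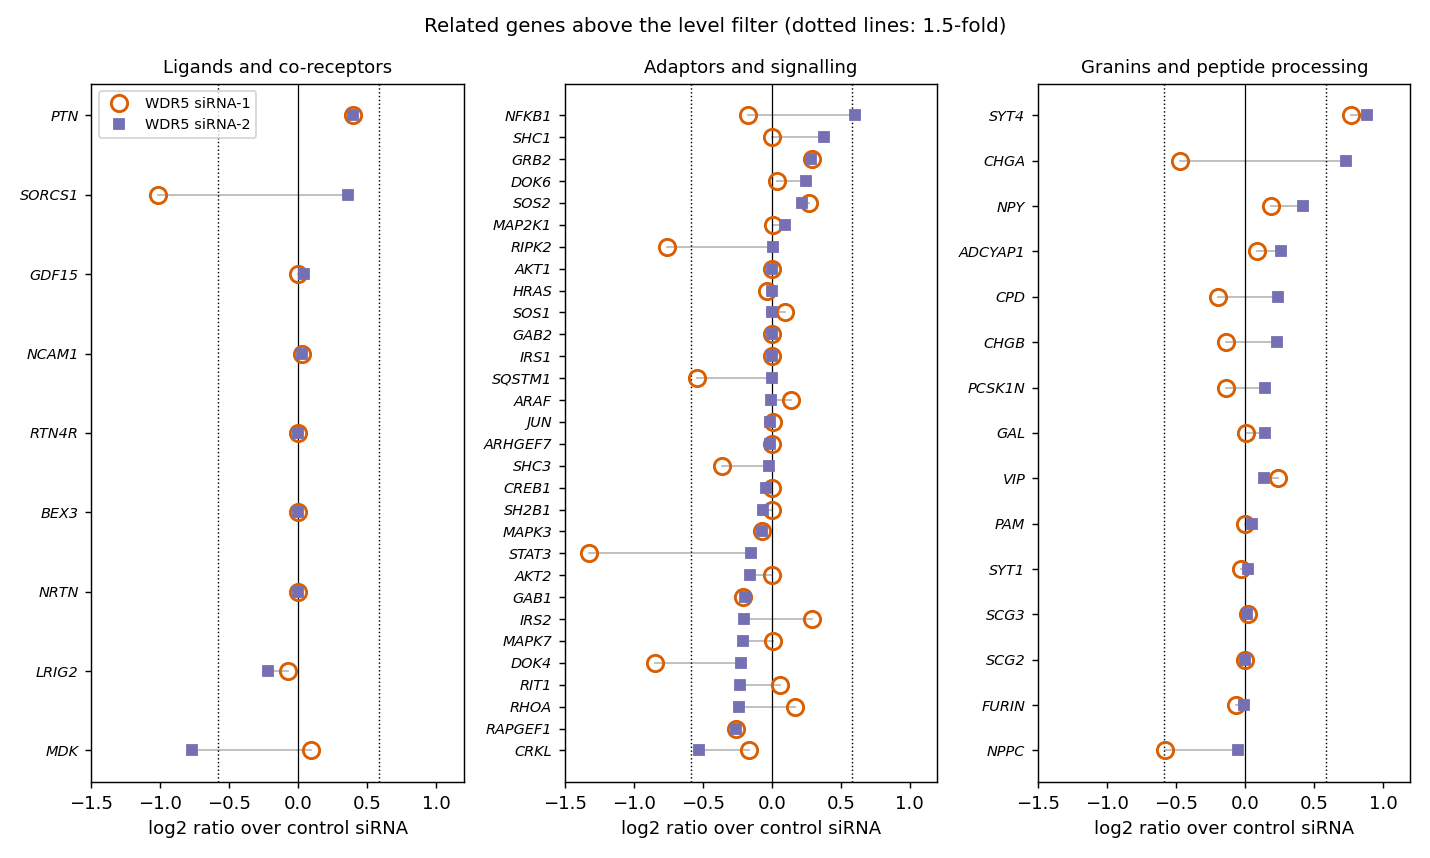
Log2 ratio over control siRNA (x axis) of every kept gene in the 3 related lists, with WDR5 siRNA-1 as open circles, WDR5 siRNA-2 as squares, a grey line joining the values of a gene and dotted lines at 1.5-fold. SYT4 lies past the limit with both siRNAs, whereas SORCS1, STAT3 and CHGA lie far apart between the siRNAs.

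VGF is stored in dense-core vesicles with the granins, so genes of those proteins and of peptide processing were compared with it. Of 33 listed genes, 27 were measured and 15 kept, and 13 of these were inside 1.5-fold with both siRNAs. Over all kept genes, 6.84% passed the limit with siRNA-1 and 6.19% with siRNA-2, and 0.618% were higher with both. The medians of the 15 were 0.00 with siRNA-1 and 0.14 with siRNA-2, against 0.00 and 0.00 over all kept genes. SYT4, a synaptotagmin of neuropeptide vesicles, was the 1 gene higher with both: it stood at 9.82 with WDR5 siRNA-1 and 9.93 with WDR5 siRNA-2, against 9.05 with the control siRNA, or 1.71-fold and 1.85-fold higher. Like VGF, its siRNA arrays lay close together and above the control.

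The granins themselves did not share this pattern. CHGA (chromogranin A) stood at 10.40 with WDR5 siRNA-1 and 11.60 with WDR5 siRNA-2, against 10.87 with the control siRNA. It was 1.66-fold higher with siRNA-2, had a log2 ratio of -0.47 with siRNA-1, and its siRNA-1 level was 2.30-fold below its siRNA-2 level. CHGB (chromogranin B) had log2 ratios of -0.14 and 0.23, SCG3 of 0.02 and 0.01, and SCG2 had the same value on all 3 arrays. Among the other peptide precursors, NPY (neuropeptide Y) had log2 ratios of 0.19 and 0.42, VIP of 0.24 and 0.14, ADCYAP1 (the precursor of PACAP) of 0.09 and 0.26, and NPPC (C-type natriuretic peptide) of -0.58 and -0.05. Of the kept enzymes, FURIN had -0.07 and -0.01, CPD -0.20 and 0.24, and PAM, which amidates peptides, 0.00 and 0.05. PCSK1 and PCSK2, also listed, had no annotated probe set here, and CPE and PCSK5 were below the filter level.

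The genes most like RET and VGF in pattern were sought among the other kept protein-coding genes, by the distance between pairs of log2 ratios over the 3 arrays. Members and genes with LOC, LINC, open reading frame or olfactory receptor names were left out of the search. Nearest to RET, at distances of 0.29 to 0.42, came GPR22 (0.46 with siRNA-1 and 1.23 with siRNA-2), GNPNAT1 (0.47 and 1.17), PXDN (0.35 and 1.08) and ANGPT2 (0.72 and 1.35). GPR22 is an orphan receptor gene, GNPNAT1 encodes an enzyme of amino sugar synthesis, PXDN a peroxidase of the extracellular matrix and ANGPT2 an angiopoietin. Of these, ANGPT2 was past 1.5-fold with both siRNAs. Nearest to VGF, at 0.20 to 0.31, came CSGALNACT2 (1.09 and 1.29), LURAP1L (1.18 and 0.87), PLK2 (1.08 and 0.91) and CHIC1 (0.95 and 1.03). All 4 were past 1.5-fold with both, which follows from being chosen this near to VGF. CSGALNACT2 takes part in chondroitin sulfate synthesis, and PLK2 is a polo-like kinase. None of the promoter windows of these 4 held TGACGTCA or CACGTG.

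**Figure D4:**
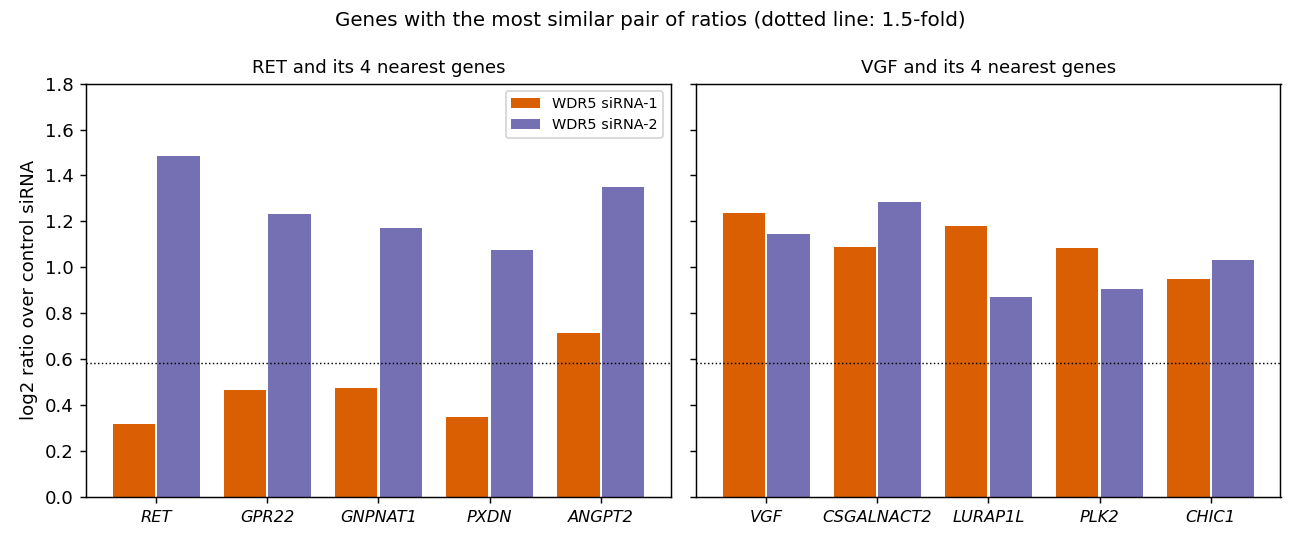
Log2 ratio over control siRNA with WDR5 siRNA-1 and WDR5 siRNA-2 (bars, 1 array per group) for RET and its 4 nearest genes and for VGF and its 4 nearest genes, with a dotted line at 1.5-fold. The RET group is higher with siRNA-2 than with siRNA-1 in every gene, and all 5 genes of the VGF group are past the line with both. Both likenesses follow from choosing the genes by nearness of these same ratios.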

How the data were processed

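The authors deposited 1 processed level per probe set and array, read here as log2 from the range of 1.34 to 14.87. No scale is given, so each fold depends on that reading. The submitters' processing notes name MAS5 without its role, and the background correction, normalization and probe summary are not given in the sources used here. No further scaling was applied. The platform annotation gave 16098 of 53617 probe sets 1 gene symbol, none several, and left 37519 unnamed here; all named rows matched the RefSeq gene table of GRCh38.p14 by Entrez identifier. Of several probe sets of a gene, the one with the highest mean was used. No build is named for the arrays. The members and lists were chosen with earlier results of these data known. The text names all members, WDR5, up to 4 shared and 2 siRNA-dependent genes per list, and the 4 nearest to RET and VGF; other list genes, markers and the genes ranked beside RET and VGF were named after their values were seen. The number of arrays limits precision. Ratios were computed with Python 3.11.15, pandas 2.3.3 and NumPy 2.4.6 and the fold rule was checked on simulated data. Alternatives were the filter, probe set choice, scaling and fold limit.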

Additional observations from a re-analysis of the deposited data

How the results depend on the processing

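Each member has 1 probe set, so of the 7 alternatives only quantile normalization and median centring could move a member's ratio. Under these 2, RET and VGF kept their direction and their side of the limit in all 3 comparisons: VGF ran from 1.24 to 1.26 with siRNA-1 and from 1.15 to 1.19 with siRNA-2, and RET from 0.32 to 0.33 with siRNA-1, while its ratio with siRNA-2 moved by 0.02 in all. GFRA2 with siRNA-2 ran from -0.67 to -0.61 and was lost with the 2-fold limit and, like ALK, left out by the 75th percentile filter, so its log2 ratio has no value there. With a lower limit of 0.322 on the log2 scale, 2 members were apart between the siRNAs (GFRA2 joined RET at 0.47). RET with siRNA-1, at 0.319 as deposited, fell just short of this limit. Its ratios of 0.333 with quantile normalization and 0.331 with median centring lie above 0.322, but rescaling and the lower limit were not combined. The list counts moved with the fold limit by construction. At 2-fold, the ligand list had 0 genes apart with siRNA-2, the signalling list 1 with siRNA-1 and 0 with siRNA-2, and the granin list 0 with each. At the lower limit, the ligand list had 2 genes apart with siRNA-1 and 3 with siRNA-2, the signalling list 5 and 3, and the granin list 3 with siRNA-1. With no filter, the ligand list had 2 genes apart with siRNA-2 (SORCS2, at 0.63, joined MDK). Over all kept genes, the split of 46 higher and 63 lower with both siRNAs became 51 and 51 with quantile normalization, 33 and 30 with the 75th percentile filter, 6 and 7 at 2-fold and 184 and 281 at the lower limit. No paired analysis was possible because each group has 1 array, and no array could be left out for the same reason. Depth does not apply to arrays, and no signal over background is given with the values, so the limits on the dimmer members cannot be set closer.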

Other observations

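The promoter letters found in the VGF window were also looked up in the other kept genes, as a description chosen after the VGF window had been read. Of 216 kept genes with TGACGTCA in a window, 3 (1.39%) were at least 1.5-fold higher with both siRNAs, namely IFRD1, IFT57 and VGF, and 0 were lower, against 38 higher (0.635%) and 56 lower (0.936%) among 5986 kept genes with a window in the table. Without VGF, whose window prompted the search, 2 of 215 (0.93%) were higher. Their median log2 ratios were 0.00 with siRNA-1 and 0.00 with siRNA-2. CHGA also had TGACGTCA in its window, with a pattern across the arrays that differed from that of VGF. Of 702 kept genes with CACGTG, 5 (0.712%) were higher with both, ASS1, IQCK, PER1, SBNO1 and VGF, and 2 (0.285%) were lower, WDR5 itself and ZNF318. Without VGF, 4 of 701 (0.571%) were higher. These are counts of few genes with no test.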
